A study of Mus musculus with 6 samples.

Results

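*Sox9*, *Acan*, *Comp*, *Hapln1*, *Prg4*, *Cilp*, *Chad*, *Scx*, *Mkx* and *Tnmd* are 10 of the 56980 genes in the count table of mouse bone marrow mesenchymal stem cells (BM MSCs), the stromal cells of marrow that adhere to plastic. They were chosen by name as genes of cartilage and tendon, and all 10 were found. In the limb, cartilage and tendon arise from neighbouring mesenchymal progenitors. SOX9 is the transcription factor that commits progenitors to cartilage, whose matrix is built of aggrecan (*Acan*) held on hyaluronan by the link protein HAPLN1, with COMP, chondroadherin (*Chad*) and cartilage intermediate layer protein (*Cilp*) between collagen and proteoglycan, and lubricin (*Prg4*) at the sliding surface. Scleraxis (*Scx*), a basic helix-loop-helix factor, marks tendon progenitors, Mohawk (*Mkx*) is a homeobox factor of tendon, and tenomodulin (*Tnmd*) is a membrane glycoprotein of mature tendon cells that lies downstream of scleraxis.

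The cells came from female mice that underwent ovariectomy (OVX) at 8 weeks of age, had their gut microbiota depleted with antibiotics and then received fecal microbiota transplantation (FMT) for 8 weeks. Donors were sedentary OVX mice for the TranspCtrl group (3 samples) and OVX mice trained on a treadmill for 8 weeks for the TranspExer group (3 samples), and every recipient in both groups was OVX and antibiotic-treated. The strain is not named in the sources used here, and neither is whether a sample was 1 mouse or a pool, so p-values measure the spread between these samples, which may be partly technical. Marrow was flushed from femurs and tibias after the epiphyses, the cartilage-bearing ends, had been removed, and was cultured for 7 days with no sorting step described. The comparison asks which transcripts of these cells differ with the exercise status of the microbiota donor.

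Total counts ranged from 17647682 to 21319228 per sample, so 3 counts corresponded to 0.141 to 0.17 CPM (counts scaled to the size of the library, and for the values of genes also by TMM factors). Genes entered the test with at least 0.511 CPM in 3 or more samples, before TMM scaling, which left 15190 genes, and a gene was called when edgeR's adjusted p-value was under 0.05. DEGs also had an absolute fold change of at least 2. Over all tested genes 32.2% were called, 16.6% as higher and 15.5% as lower in TranspExer. With upper-quartile factors or library size alone in place of TMM, 41.4% and 40.5% of the calls were higher instead of 51.7%, and the median log2 fold change of all genes was -0.097 and -0.105 instead of -0.018. TranspCtrl replicate 1 lay apart from the rest of its group. Its distance to the other TranspCtrl samples over log2 CPM was 60.2 to 62.8, against 37 between TranspCtrl replicates 2 and 3 and 42.8 to 43.9 within TranspExer. The biological coefficient of variation was 0.17 in TranspCtrl, 0.0479 in its replicates 2 and 3 alone and 0.0597 in TranspExer. Calls over all genes rose with this sample left out, to 41.7% of 15494 genes (3417 higher and 3041 lower), and fell to between 16.9% and 18.4% when a TranspExer sample was left out, so counts under these settings are read against those shares.

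The tendon genes *Tnmd* and *Scx* were lower in TranspExer, both beyond a 2-fold change, whereas *Mkx* was not. Of the 10 genes, 6 passed the low-count filter, and *Acan*, *Hapln1*, *Cilp* and *Chad* did not. *Tnmd* and *Scx* were the 2 genes called, and both were also DEGs. Over all tested genes 5.28% were DEGs in that direction and 3.5% in the other, but nothing is read from the count of members against these shares, since *Tnmd* and *Comp* passed the filter through TranspCtrl alone and *Acan* and *Chad*, higher in TranspExer, were removed by it. By edgeR, 0 of the 6 were called higher, 0 were higher at an unadjusted p under 0.05, and DESeq2 and limma voom also called 0 higher, whereas with no low-count filter edgeR called 2 higher, *Acan* and *Chad*. TranspCtrl and TranspExer samples did not overlap in 5 of the 10 genes, of which *Tnmd*, *Scx* and *Mkx* were tested and *Acan* and *Chad* were not. Groups did not overlap in 52.4% of all tested genes, and because of the same filter nothing is read from 3 of 6 against this share.

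**Figure D1:**
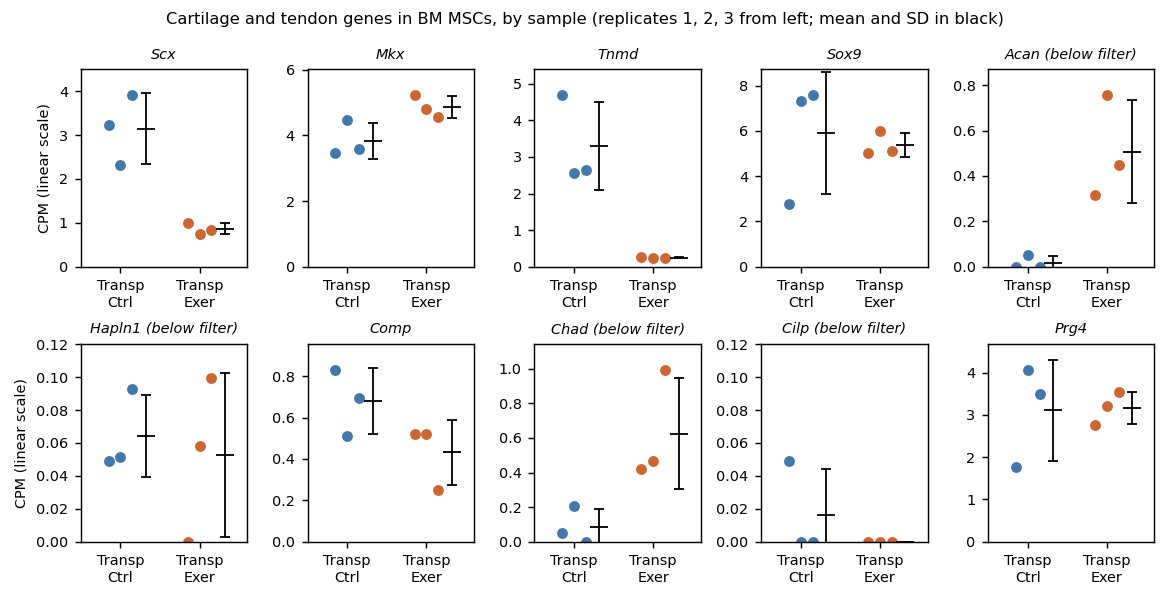
CPM (TMM-scaled, linear axes with a scale of their own in each panel) of the 10 genes in the 3 TranspCtrl and 3 TranspExer samples, with points for samples and a bar with whiskers for the mean and SD of each group. *Tnmd* fell from 2.57 to 4.69 CPM in TranspCtrl to 0.232 to 0.262 CPM in TranspExer, and *Acan* and *Chad* were near 0 in TranspCtrl.

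*Tnmd* (ENSMUSG00000031250, GRCm38 chrX:133850980-133865577, plus strand, 7 exons) had 96, 50 and 57 counts in TranspCtrl replicates 1, 2 and 3 and 5, 4 and 5 counts in TranspExer replicates 1, 2 and 3. In CPM these were 4.69, 2.57 and 2.65 against 0.262, 0.232 and 0.248, a mean of 3.3 ± 1.2 (SD, n = 3) against 0.247 ± 0.0146 (SD, n = 3). Every TranspExer sample lay far below the lowest TranspCtrl sample, and TranspCtrl replicate 1 was the highest of all. The log2 fold change was -3.7 (SE 0.38, edgeR adjusted p = 0.000399), 13.0-fold lower in TranspExer. The summed counts, 203 and 14, gave a TranspCtrl to TranspExer ratio of 13.3 with a 95% interval of 7.76 to 24.8 that covers counting error only. *Tnmd* passed the filter through its TranspCtrl samples alone, since no TranspExer sample reached the filter's level. Leaving out each sample in turn kept the log2 fold change between -3.85 and -3.36, the latter without TranspCtrl replicate 1. In bulk RNA, fewer cells that express a gene and less of its RNA per cell cannot be told apart, here and for each gene that follows.

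The DNA just upstream of *Tnmd*, *Acan* and *Chad* is shown because these are the genes whose groups did not overlap and for which RefSeq (GRCm38.p6) gave a promoter window, as it did for 5 of the 10. Each stretch runs 5′ to 3′ on the gene's strand within the 250 bases before the RefSeq start, and for *Tnmd* it stops after 222 bases, where the first annotated exon begins. Capitals mark the motifs that were searched on both strands, namely the SOX-type ACAAAG and ACAATG, the E-box CANNTG and the TATA box TATAAA. The 3 stretches cover chrX:133850758-133850979 for *Tnmd*, chr7:79052976-79053225 for *Acan* and chr11:94564797-94565046 for *Chad*, each on the plus strand.
Tnmd: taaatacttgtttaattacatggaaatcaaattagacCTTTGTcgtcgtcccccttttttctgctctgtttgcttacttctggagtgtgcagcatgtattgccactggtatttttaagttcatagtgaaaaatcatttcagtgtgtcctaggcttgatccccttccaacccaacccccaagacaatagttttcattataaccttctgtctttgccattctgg
Acan: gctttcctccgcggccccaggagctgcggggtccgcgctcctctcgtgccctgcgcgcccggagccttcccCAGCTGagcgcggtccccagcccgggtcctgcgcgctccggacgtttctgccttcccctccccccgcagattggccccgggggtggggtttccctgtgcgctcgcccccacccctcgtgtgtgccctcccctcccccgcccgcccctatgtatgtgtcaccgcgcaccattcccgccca
Chad: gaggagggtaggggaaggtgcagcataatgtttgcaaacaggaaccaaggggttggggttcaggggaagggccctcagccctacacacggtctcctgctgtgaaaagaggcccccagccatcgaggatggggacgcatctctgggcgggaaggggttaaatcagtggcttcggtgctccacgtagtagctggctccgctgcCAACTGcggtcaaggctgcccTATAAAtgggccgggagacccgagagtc
The *Tnmd* stretch was AT-rich (39.2% GC) and held 1 SOX-type motif, read as ACAAAG on the minus strand at position -213 from the RefSeq start, and no E-box or TATA box. The *Acan* stretch was 74.4% GC and held 1 E-box at -179. The *Chad* stretch was 60.4% GC and held 1 E-box at -49 and 1 TATA box at -28. Of 32851 RefSeq windows of 250 bases, 16.5% held ACAAAG, 10.7% ACAATG, 66.2% an E-box and 12.4% a TATA box, and of the same windows cut to the 222 bases of *Tnmd* 15% held ACAAAG, 62.4% an E-box and 10.1% a TATA box. These are matches of letters and not measured binding sites.

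*Scx* (ENSMUSG00000034161, GRCm38 chr15:76457452-76459458, plus strand, annotated as 1 exon block) was counted 66, 45 and 84 times in TranspCtrl and 19, 13 and 17 times in TranspExer. Its CPM were 3.22, 2.31 and 3.91 against 0.994, 0.756 and 0.844, a mean of 3.15 ± 0.801 (SD, n = 3) against 0.865 ± 0.12 (SD, n = 3). The groups did not overlap, and TranspCtrl replicate 3 was the highest sample. The log2 fold change was -1.86 (SE 0.27, edgeR adjusted p = 0.00208), 3.62-fold lower in TranspExer. It stayed between -2.03 and -1.67 when each sample was left out in turn, with adjusted p-values up to 0.0163. When the fold change of 2 was itself tested, edgeR's adjusted p was 0.003 for *Tnmd* and 0.0598 for *Scx*. *Scx* lies within the gene *Bop1*, which encodes a ribosome biogenesis factor on the other strand and shares 0 annotated exon bases with it. *Bop1* had 1059 to 1223 counts in TranspCtrl and 1103 to 1313 in TranspExer, a log2 difference of 0.23 (SE 0.08, adjusted p = 0.0516) that did not pass the threshold. The part of *Bop1* reads in the *Scx* counts was not tested. The sample labels name a stranded mRNA library kit and the study's methods a TruSeq kit, and whether the counting used strand is not given in the sources used here, for *Scx* as for *Chad* and *Prg4* with their overlapping genes.

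*Mkx* (ENSMUSG00000061013, GRCm38 chr18:6934518-7004780, minus strand), the other transcription factor of tendon on the list, was not called. Its counts were 71, 87 and 77 in the TranspCtrl samples and 100, 83 and 92 in the TranspExer samples. In CPM these were 3.47, 4.47 and 3.58 against 5.23, 4.82 and 4.57, or 3.84 ± 0.547 against 4.88 ± 0.334 (SD, n = 3 each). Every TranspExer sample lay above every TranspCtrl sample, but the log2 fold change of 0.35 (SE 0.16, unadjusted p = 0.0649, edgeR adjusted p = 0.136) did not pass the threshold. It was 0.26 to 0.47 under the alternatives.

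The balance among the 3 tendon genes within a sample was described by ratios of their counts, which do not depend on how libraries are scaled. *Tnmd* counts per *Scx* count were 1.45, 1.11 and 0.679 in TranspCtrl and 0.263, 0.308 and 0.294 in TranspExer. *Mkx* counts per *Scx* count were 1.08, 1.93 and 0.917 against 5.26, 6.38 and 5.41. *Tnmd* counts per *Mkx* count were 1.35, 0.575 and 0.74 against 0.05, 0.0482 and 0.0543. In each of these ratios the groups were separate, and the TranspExer samples lay closer together than the TranspCtrl samples on the log scale. The ratio of *Sox9* to *Scx* also separated the groups, with 0.864, 3.18 and 1.94 in TranspCtrl and 5.05, 7.92 and 6.06 in TranspExer. The groups of *Tnmd*, *Scx* and *Mkx* were already separate, so the ratios restate those differences on a scale free of library size and add no independent support.

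**Figure D2:**
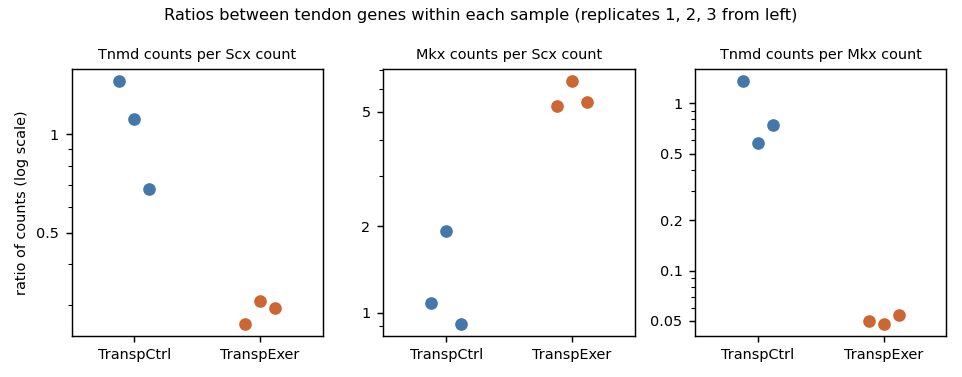
Ratios of counts between tendon genes within each sample on log axes, with 1 point for each of the 3 TranspCtrl and 3 TranspExer samples and one panel per ratio. The TranspExer samples lay below TranspCtrl for *Tnmd* per *Scx* (0.263 to 0.308) and for *Tnmd* per *Mkx*, and above TranspCtrl for *Mkx* per *Scx* (5.26 to 6.38).

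*Sox9* (ENSMUSG00000000567, GRCm38 chr11:112782224-112787760, plus strand, 3 exons), the cartilage factor, was not called, and its value depended on which TranspCtrl sample was left out. The TranspCtrl samples had 57, 143 and 163 counts and the TranspExer samples 96, 103 and 103. The CPM were 2.78, 7.34 and 7.58 against 5.02, 5.99 and 5.12, so TranspCtrl replicate 1 lay below and TranspCtrl replicates 2 and 3 above every TranspExer sample. The means were 5.9 ± 2.7 and 5.37 ± 0.531 (SD, n = 3 each), with a log2 fold change of -0.14 (SE 0.34, unadjusted p = 0.694, edgeR adjusted p = 0.773). Without TranspCtrl replicate 1 it was -0.48 with an adjusted p of 0.0151, past the threshold, and 3 of the 10 genes were then called lower, in a fit that called 41.7% of all genes. Without TranspCtrl replicate 2 or 3 the sign reversed, to 0.05 and 0.09. The variance of *Sox9* in TranspCtrl was 25.4 times that of counting error alone, against 0.946 times in TranspExer.

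*Acan* (ENSMUSG00000030607, GRCm38 chr7:79053483-79115099, plus strand), whose upstream stretch is printed above, was almost undetected in TranspCtrl, with 0, 1 and 0 counts. TranspExer had 6, 13 and 9 counts, or 0.314, 0.756 and 0.447 CPM, and the groups did not overlap. The summed counts were 1 (95% exact Poisson interval 0.0253 to 5.57) and 28 (18.6 to 40.5), a TranspExer to TranspCtrl ratio of 30.5 with an interval of 5.04 to 1250 for counting error only. Only 1 sample reached the filter's level, so *Acan* was not tested by the model. The exact two-sided permutation p was 0.1, the smallest that 3 against 3 samples allow, so this test could not have passed 0.05. With no filter on low counts, edgeR gave an adjusted p of 0.00255 over 28201 genes. The level remained very low in every sample, with aggrecan at 0.0687 CPM per kilobase of transcript in TranspExer against a median of 7.33 over all tested genes.

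*Hapln1* (ENSMUSG00000021613, GRCm38 chr13:89539796-89611652, plus strand), the partner of aggrecan on hyaluronan, was counted 1, 1 and 2 times in TranspCtrl and 0, 1 and 2 times in TranspExer. All 6 values were at or under 3 counts, so a difference was not detectable at this depth. *Cilp* (ENSMUSG00000042254, GRCm38 chr9:65265180-65280605, plus strand) had 1 count in TranspCtrl replicate 1 and 0 in the other samples. A total of 0 counts in TranspExer allows up to 3.69 counts, so these cells held little or no *Cilp* RNA in either group and no fold is given.

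*Comp* (ENSMUSG00000031849, GRCm38 chr8:70373558-70382066, plus strand), a pentameric thrombospondin of cartilage and tendon, was counted 17, 10 and 15 times in TranspCtrl and 10, 9 and 5 times in TranspExer. Its CPM were 0.83, 0.513 and 0.697 against 0.523, 0.523 and 0.248, with means of 0.68 ± 0.159 and 0.432 ± 0.159 (SD, n = 3 each). The groups overlapped, and the log2 fold change of -0.67 (SE 0.39, unadjusted p = 0.128, edgeR adjusted p = 0.224) did not pass the threshold. *Comp* passed the filter through its TranspCtrl samples alone, and it was not tested when TranspCtrl replicate 3 was left out.

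*Chad* (ENSMUSG00000039084, GRCm38 chr11:94565047-94569127, plus strand), a leucine-rich protein that chondrocytes attach to, was counted 1, 4 and 0 times in TranspCtrl and 8, 8 and 20 times in TranspExer. The CPM were 0.0488, 0.205 and 0 against 0.419, 0.465 and 0.993, so the groups did not overlap and TranspExer replicate 3 was the highest. The summed counts of 5 and 36 gave a TranspExer to TranspCtrl ratio of 7.84 (95% interval 3.07 to 25.6, counting error only) and an exact two-sided permutation p of 0.1, again the smallest possible. *Chad* did not pass the filter, and with no filter edgeR's adjusted p was 0.0119. It lies within *Acsf2*, a fatty acid activating enzyme gene on the other strand that shares 0 annotated exon bases with it. *Acsf2* itself was higher in TranspExer, with 395 to 738 counts in TranspCtrl and 929 to 1273 in TranspExer (log2 fold change 1.02, SE 0.19, edgeR adjusted p = 0.00641). The part of *Acsf2* reads in the *Chad* counts was not tested.

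*Prg4* (ENSMUSG00000006014, GRCm38 chr1:150449412-150466165, minus strand) was counted 36, 79 and 75 times in TranspCtrl and 53, 55 and 71 times in TranspExer after rounding. In CPM these were 1.76, 4.06 and 3.49 against 2.77, 3.2 and 3.53, with means of 3.1 ± 1.2 and 3.17 ± 0.378 (SD, n = 3 each). As for *Sox9*, TranspCtrl replicate 1 was the lowest of all samples, and the groups overlapped. The log2 fold change was 0.03 (SE 0.3, unadjusted p = 0.917, edgeR adjusted p = 0.943), and it was -0.25 without TranspCtrl replicate 1. It was -0.04 with upper-quartile factors or library size alone, so no direction is given. *Prg4* shares 204 exon bases with *Tpr*, a nuclear pore gene on the other strand, which had 3459 to 4537 counts and did not pass the threshold (log2 fold change -0.05, edgeR adjusted p = 0.634). The deposited *Prg4* counts were not whole numbers, for example 36.02 and 79.09.

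**Figure D3:**
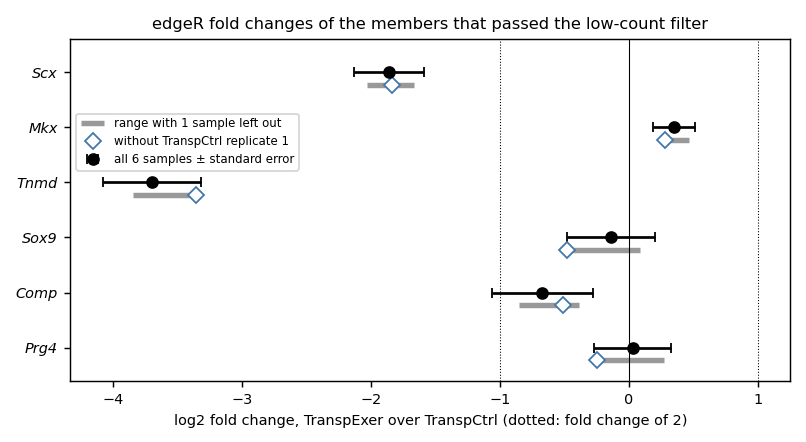
Log2 fold change (TranspExer over TranspCtrl) of the 6 genes that passed the low-count filter, with points for the fit to all 6 samples, whiskers for its SE, grey bands for the range when each sample is left out in turn and open diamonds for the value without TranspCtrl replicate 1. *Tnmd* (-3.7) and *Scx* (-1.86) lay far from 0 throughout, and the ranges of *Sox9* (-0.48 to 0.09) and *Prg4* (-0.25 to 0.27) crossed 0.

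Levels between genes were compared per kilobase of the transcript length given with the counts. In TranspCtrl, *Scx* (3.04 CPM per kilobase) and *Tnmd* (2.44) were the highest of the 10, followed by *Sox9* (1.43), *Mkx* (1.05), *Prg4* (0.811) and *Comp* (0.282). In TranspExer the order was *Mkx* (1.34 CPM per kilobase), *Sox9* (1.3), *Scx* (0.835), *Prg4* (0.828), *Chad* (0.372), *Tnmd* (0.183) and *Comp* (0.179). *Tnmd* thus moved from a neighbour of *Scx* to a neighbour of *Comp*. In TranspCtrl the sample values of *Scx* and *Tnmd* overlapped, as did those of *Sox9* and *Mkx* and of *Mkx* and *Prg4*, whereas every *Tnmd* value (1.9 to 3.46 CPM per kilobase) lay above every *Sox9* value (0.673 to 1.83). *Mkx* and *Sox9* in TranspExer, and *Scx* and *Prg4* there, did not differ beyond their spread. The length given for *Scx*, 1035 bases, is shorter than the 2007 bases of its merged annotated exons, which cover the whole span of the gene. That block may hold bases that are absent from the counted transcript. With it the levels of *Scx* would be 1.57 and 0.431 CPM per kilobase, below *Tnmd* in TranspCtrl and below *Prg4* in TranspExer. Averaged over all samples, the 10 genes spanned 0.00196 to 1.94 CPM per kilobase, all under the median of 7.33 for tested genes.

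Among 24 other cartilage matrix genes, 11 were tested, of which 2 were called higher and 6 lower, with a median log2 fold change of -0.58 against -0.02 over all tested genes. The counts were 3 higher and 5 lower without TranspCtrl replicate 1, and 4 were lower without any other sample. Several defining cartilage genes were absent or nearly so. *Snorc*, *Ucma*, *Epyc*, *Cytl1* and *Clec3a* had 0 counts in every sample, *Col9a1*, a chain of type IX collagen, had 0 counts in TranspCtrl and 1 in TranspExer, and *Matn1*, cartilage matrix protein, had 11 and 7. The cartilage collagen *Col2a1* rose from 20.5 to 36.1 mean CPM (log2 fold change 0.82, SE 0.15, edgeR adjusted p = 0.00523). *Col10a1*, the collagen of hypertrophic cartilage, rose from 0.875 to 2.18 mean CPM (log2 fold change 1.31, SE 0.24, adjusted p = 0.00518). *Col11a2* had a log2 value of 0.51 (adjusted p = 0.105), which was 0.76 with an adjusted p of 0.00268 without TranspCtrl replicate 1. *Col11a1*, which mesenchymal cells outside cartilage also make, fell from 141 to 38.4 mean CPM (log2 fold change -1.88, SE 0.08, adjusted p = 1.68e-05). The small leucine-rich proteoglycans *Fmod*, *Omd* and *Ogn* fell by 1.86, 1.93 and 0.82 on the log2 scale, with adjusted p-values of 0.000372, 0.000621 and 0.000213. These proteoglycans are also part of the matrix of tendon and bone.

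Of 18 other regulators of cartilage, 11 were tested and 2 were called lower, and the other 9 did not pass the threshold. *Pth1r*, the receptor for parathyroid hormone, fell by 0.76 and *Trps1*, a GATA-type repressor, by 0.28 on the log2 scale (edgeR adjusted p = 0.0146 and 0.0308). Neither call was retained when any TranspExer sample was left out (adjusted p of 0.05 to 0.0599 for *Pth1r* and 0.0764 to 0.093 for *Trps1*), although the log2 fold changes stayed at -0.79 to -0.75 and -0.31 to -0.27. *Trps1* was also lost without TranspCtrl replicate 2 or 3 (adjusted p = 0.0763 and 0.1). Without TranspCtrl replicate 1 this list had 1 gene called higher and 4 called lower.

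Of 28 other tendon and ligament genes, 24 were tested, with 2 called higher and 13 lower, 6 of the latter as DEGs, and the median of their log2 fold changes was -0.5. Without TranspCtrl replicate 1 these counts were 3 and 18, beside the rise in calls over all genes from 32.2% to 41.7%. *Postn*, encoding periostin, fell from 881 to 254 mean CPM (log2 fold change -1.79, adjusted p = 4.66e-05) and the collagen-binding *Dcn* from 13.8 to 4.06 (-1.76, adjusted p = 6.69e-05). The fibrillar collagens *Col3a1* and *Col5a2* fell by 1.28 and 1.2 on the log2 scale (adjusted p = 8.1e-05 and 8.52e-05). *Egr2*, a zinc finger factor that acts in tendon, rose by 0.84 (adjusted p = 0.000602), and *Col14a1* by 0.76 (adjusted p = 0.0277), a call lost without TranspCtrl replicate 2 or 3 or TranspExer replicate 2 or 3 (adjusted p 0.0639 to 0.113). *Egr1* and *Tnc* had log2 fold changes of 0.06 each (adjusted p = 0.735 and 0.74). *Col1a1*, the main tendon and bone collagen, had a value of -0.16 (adjusted p = 0.674) with all samples and of -0.44 (adjusted p = 1.54e-05) without TranspCtrl replicate 1. *Thbs4*, a tendon thrombospondin, had 1 count in TranspCtrl and 2 in TranspExer. *Fmod* is on this list and on that of cartilage matrix, and *Col1a1*, *Col1a2*, *Col3a1*, *Dcn* and *Lum* are also markers of stromal cells in general.

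Relatives of the 10 genes numbered 20, of which 7 were tested, with 4 called lower and 3 that did not pass, or 6 called lower without TranspCtrl replicate 1. The thrombospondins *Thbs2* and *Thbs3*, relatives of *Comp*, were lower, with -1.45 for *Thbs2* (adjusted p = 4.66e-05) and -1.92 for *Thbs3* (adjusted p = 0.000492) as log2 fold changes, whereas the value of *Thbs1* was 0.12 (adjusted p = 0.565). Versican (*Vcan*), the aggrecan relative of loose connective tissue, fell from 221 to 85.5 mean CPM (log2 fold change -1.37, adjusted p = 6.56e-05). *Irx3*, a homeobox gene of the class that holds *Mkx*, fell by 0.8 (adjusted p = 0.0135), a call lost whichever TranspExer sample was left out (adjusted p 0.0503 to 0.052), at log2 fold changes of -0.82 to -0.8. The value of *Hapln4* was -0.64 (adjusted p = 0.179), and without TranspCtrl replicate 1 it was -0.91 and passed the threshold (adjusted p = 0.0336).

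The enzymes that build and cut cartilage matrix moved in both directions. Of 21 genes listed under chondroitin and keratan sulfate synthesis, all tested, 10 were called higher and 2 lower, or 11 and 4 without TranspCtrl replicate 1. The higher calls were 8 with upper-quartile factors, with library size alone, and without TranspCtrl replicate 2 or any 1 TranspExer sample. The list held no gene of keratan sulfate alone, so nothing is read from it for keratan sulfate. *Xylt1*, which starts the sugar chain on the core protein, rose by 0.87, the sulfotransferases *Chst7* and *Chst15* by 1.54 and 0.48 and the chain-starting *Csgalnact2* by 0.52 on the log2 scale (adjusted p = 0.000521, 0.000782, 0.00532 and 0.00201). *Chst3* and *Csgalnact1* fell by 0.81 and 0.73 (adjusted p = 0.00135 and 0.00336). Of 21 matrix proteases, their inhibitors and hyaluronan genes, 19 were tested, with 2 called higher and 9 lower, or 4 and 10 without TranspCtrl replicate 1. *Adamts7*, a protease that can cut COMP, rose from 8.42 to 27.1 mean CPM (log2 fold change 1.68, SE 0.1, adjusted p = 4.74e-05). *Adamts12*, on the same list, fell from 76.5 to 54.5 mean CPM (log2 fold change -0.49, SE 0.07, adjusted p = 0.00233), so no change in the cutting of COMP is read from these genes. *Adamts15* rose by 1.58 (adjusted p = 0.0149), a call lost without TranspExer replicate 2 or 3 (adjusted p = 0.0621 and 0.0663). *Mmp9*, *Timp3*, *Htra1* and *Mmp2* fell by 2.42, 1.82, 1.12 and 1.08 on the log2 scale (adjusted p = 6.5e-05, 4.96e-05, 0.000304 and 0.000105).

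**Figure D4:**
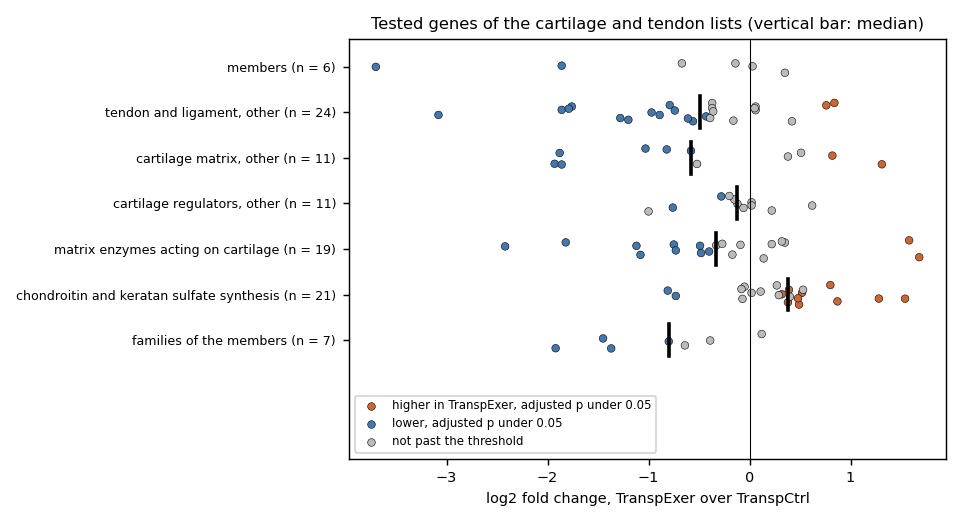
Log2 fold change (TranspExer over TranspCtrl) of the tested genes of each list, coloured by edgeR call, with a vertical bar at the median of each list other than the 10 genes. Points of the tendon and ligament list lay mostly below 0 (median -0.5), and those of the chondroitin and keratan sulfate synthesis list mostly above 0 (median 0.38). The latter list held no gene of keratan sulfate alone.

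Markers of other cells also differed between the groups. All 15 stromal markers were tested, with 3 called higher and 10 lower, and their summed level was 15000 to 23100 CPM in TranspCtrl and 14300 to 15600 CPM in TranspExer. Leukocyte genes were abundant in these unsorted cultures, with *Ptprc*, which encodes CD45, at a mean of 281 and 294 CPM and *Csf1r*, the macrophage growth factor receptor, at 882 and 928 CPM. Of 10 macrophage and osteoclast markers, 1 was called higher and 5 lower (summed 8550 to 12900 against 6420 to 6870 CPM). All 8 endothelial markers were called higher (189 to 228 against 583 to 635 CPM), and 6 of 7 B and plasma cell markers lower (1720 to 2050 against 556 to 589 CPM). Of 8 pericyte and smooth muscle markers 5 were called higher and 3 lower (2530 to 2990 against 1840 to 2060 CPM). Of 6 megakaryocyte markers 4 were called higher (249 to 314 against 443 to 481 CPM). Of 7 neutrophil markers 2 were called higher and 1 lower (1870 to 2820 against 3420 to 3690 CPM). The higher calls were *Mpo* (mean 216 against 1200 CPM) and *Elane* (97.5 against 435 CPM), whereas *S100a8*, *S100a9*, *Ltf* and *Camp* were not called. The lower call, *Ly6g*, was lost with DESeq2, with no low-count filter, with the replicate block and whichever sample was left out. Of 8 osteoblast markers 5 were tested and 4 of them called lower (2760 to 3490 against 2610 to 2870 CPM), with *Bglap* and *Bglap2* near 0 in both groups. *Dmp1*, the other untested osteoblast marker, had 15 counts in TranspCtrl and 39 in TranspExer, and the groups did not overlap. Of 7 skeletal muscle markers 2 were tested and neither passed, with *Myf5* and *Pax7* at 0 in all samples (5.47 to 8.56 against 4.66 to 6.51 CPM). Without TranspCtrl replicate 1, 6 megakaryocyte, 4 neutrophil, 2 macrophage and osteoclast and 1 osteoblast marker were called higher, and 11 stromal and 1 skeletal muscle marker lower, again with 41.7% of all genes called. The part of these cell types in the values of *Tnmd*, *Scx* and the other genes was not tested.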

How the data were processed

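RNA-Seq was done on BM MSCs of 3 TranspCtrl and 3 TranspExer samples, grouped by the treatment given in the sample labels. The authors deposited expected counts per gene, not normalized, with gene names and transcript lengths, on the mm10 build (GRCm38) per the labels. The aligner, the counting tool and its strand setting are not given in the sources used here. In each sample 10.1% to 12.2% of genes had a count that was not whole, and every count was rounded. The genes and lists were chosen with earlier results of these data known.

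Counts were tested with edgeR 4.0.16 in R 4.3.3 (filterByExpr, TMM, quasi-likelihood test of group, no covariates), and p-values were adjusted over 15190 genes by Benjamini-Hochberg. The standard error is the absolute log2 fold change divided by the square root of F. Alternatives were DESeq2 1.42.0, limma 3.58.1 (voom), other normalizations and filters, blocking on replicate number, a test against a 2-fold change (glmTreat) and each sample left out. Intervals are exact at 95% (Poisson, or binomial for ratios) and cover counting error only. Positions and overlaps came from GENCODE M21, and promoter windows from RefSeq. Beside the 10 genes, those named are the called genes of each list with the smallest adjusted p-value, up to 4 in each direction, several defining cartilage and tendon genes fixed by name, the most abundant relatives and marker examples. *Bop1*, *Acsf2* and *Tpr* are named because they overlap a member of the list. *Bglap*, *Bglap2*, *Dmp1*, *Myf5*, *Pax7*, *Ptprc*, *Adamts12*, the neutrophil markers and the cartilage genes at 0 counts were named after their values were seen. The fits were also run on simulated counts with known changes. These had the same spread in every gene and in both groups, unlike the data, so nothing is read from them here. Other experiments of the study were not analysed here.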

Additional observations from a re-analysis of the deposited data

How the results depend on the processing

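The calls of *Tnmd* and *Scx* as lower were retained under each alternative, except that *Scx* had an adjusted p of 0.0598 when the fold change of 2 was tested in edgeR's model, which left 1 of the 10 genes past both DEG thresholds. With no filter on low counts, 2 of the 10 genes, *Acan* and *Chad*, were called higher, and both were past both DEG thresholds, since only then were they tested. *Comp* was not tested with a filter of 1 CPM in 3 samples or without TranspCtrl replicate 3. The log2 fold change of *Prg4* was -0.04 with upper-quartile factors and -0.04 with library size alone, and it ranged from -0.25 to 0.27 when each sample was left out. That of *Sox9* ranged from -0.48 to 0.09, and it was called only without TranspCtrl replicate 1. Among the genes of the cartilage and tendon lists, 1 rather than 5 was past both DEG thresholds as higher when the fold change of 2 was tested. Replicate numbers are not stated to pair samples, and deviations of same-numbered samples correlated at 0.025, -0.002 and 0.042. With the replicate block, 2 of the 10 genes were called lower, 2484 genes in all were called higher and 2218 lower, against 2523 and 2361, and of the list counts only that of neutrophil markers called lower moved beyond 1.5 times, from 1 to 0, as it did in 9 of the 14 alternatives. Depth limits *Acan*, *Hapln1*, *Cilp* and *Chad*, with at most 20 counts in a sample.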
